A study of Mus musculus with 29 samples.

Results

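IRF8 and PU.1 binding and 2 marks of active or primed regulatory DNA, H3K27ac and H3K4me1, were examined at 9 mouse genes of the complement system: C1qa, C1qb, C1qc, C3, C4b, Cfp, C3ar1, Itgam and Itgb2. The members were given by name, and every peak region that overlapped a gene body extended by 20 kb on each side was taken, each region once. This gave 567 of the 1008665 distinct regions in 25 peak lists. The 3 C1q genes lie side by side on chromosome 4 and share regions, so the 9 genes form 7 loci. All coordinates are on GRCm38, with genes from GENCODE release M21.

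The data came from CUT&RUN, in which a nuclease is brought by an antibody to its target on chromatin, and the DNA it frees is sequenced. All animals were female. IRF8 libraries were made with a GFP antibody from IRF8-EGFP mice, with 4 libraries from sorted microglia of postnatal day 9 (P9), 3 from day 14 (P14), 3 from adults and 3 from peritoneal macrophages. PU.1, H3K27ac and H3K4me1 were mapped in sorted microglia of adult mice, given as 3 months old, of the WT and IRF8KO strains, with 2 libraries per target and genotype. The growth protocol gives 3 months as the age for every sample, which cannot hold for P9 and P14, so it was applied here to the adult microglia only, and the age of the macrophage donors is unknown here. The labels do not describe the knockout allele, say whether animals were pooled, or state that replicates came from separate animals, so the spread between libraries may be partly technical. Libraries held 7250496 to 24705885 fragments. The cells labelled peritoneal macrophages were named from their titles, since their source label names microglia, and no H3K27ac list of these cells was analysed here to check them. Among the adult H3K27ac lists, a peak lay over the transcription start of 4 of 6 microglia markers in both WT libraries (P2ry12, Sall1 and Siglech among them). In each IRF8KO library it was 2 of 6, and Sall1 had none. None of 16 markers of neurons, astrocytes, oligodendrocytes and peritoneal macrophages had such a peak in these 4 libraries.

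Complement is a cascade of plasma proteins that tags particles and cells for uptake. C1qa, C1qb and C1qc encode the chains of C1q, the recognition molecule of the classical pathway, which activates C4 and, through it, C3. C4b and C3 encode those thioester proteins, and Cfp encodes properdin, which stabilises the alternative pathway C3 convertase. C3ar1 encodes the receptor for the C3a fragment. Itgam (CD11b) and Itgb2 (CD18) encode the subunits of complement receptor 3, which binds cleaved C3. In the brain, microglia make most of the C1q, and C1q, C3 and complement receptor 3 are known for their part in the removal of synapses during development. IRF8 and PU.1 are transcription factors of the myeloid lineage that can bind DNA together at composite ETS-IRF sites.

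Of the loci, C1q and Itgam each held an IRF8 element found in all 13 IRF8 libraries, and both are printed here with those of C3ar1 and C3. Each run is 300 bp long, and none holds an annotated UTR. For C1q the run is the stretch directly before the start of C1qb, chr4:136886188-136886487, minus strand, which is the direction of C1qb transcription, and the capitals mark the span of the peak summits in all 17 IRF8 and PU.1 libraries. For C3ar1 it is centred on the strongest adult IRF8 summit, in the intron of C3ar1, chr6:122854535-122854834, plus strand, and the capitals span the 3 adult summits. For Itgam (chr7:128048866-128049165, between genes, plus strand) and C3 (chr17:57247994-57248293, within the neighbouring gene Gpr108, plus strand) the run is also centred on the strongest adult summit, and the capitals mark matches to the motifs named after the sequences.
C1q: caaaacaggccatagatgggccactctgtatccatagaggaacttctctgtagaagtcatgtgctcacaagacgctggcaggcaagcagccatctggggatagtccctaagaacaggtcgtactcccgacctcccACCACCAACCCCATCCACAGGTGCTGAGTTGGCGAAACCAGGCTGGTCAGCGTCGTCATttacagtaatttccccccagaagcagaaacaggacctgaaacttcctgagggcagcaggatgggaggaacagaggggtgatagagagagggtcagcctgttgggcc
C3ar1: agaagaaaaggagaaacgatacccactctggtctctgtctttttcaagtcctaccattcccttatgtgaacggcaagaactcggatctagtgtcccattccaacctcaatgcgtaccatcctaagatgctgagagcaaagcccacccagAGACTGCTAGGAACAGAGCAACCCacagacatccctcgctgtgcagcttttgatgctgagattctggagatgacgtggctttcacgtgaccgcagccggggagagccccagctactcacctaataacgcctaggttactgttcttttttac
Itgam: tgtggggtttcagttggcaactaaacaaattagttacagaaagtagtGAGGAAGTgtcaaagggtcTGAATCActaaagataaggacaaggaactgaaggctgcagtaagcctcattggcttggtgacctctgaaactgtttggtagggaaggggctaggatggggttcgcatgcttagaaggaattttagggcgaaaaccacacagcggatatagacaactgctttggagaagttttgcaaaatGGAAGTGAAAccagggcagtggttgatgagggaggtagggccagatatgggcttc
C3: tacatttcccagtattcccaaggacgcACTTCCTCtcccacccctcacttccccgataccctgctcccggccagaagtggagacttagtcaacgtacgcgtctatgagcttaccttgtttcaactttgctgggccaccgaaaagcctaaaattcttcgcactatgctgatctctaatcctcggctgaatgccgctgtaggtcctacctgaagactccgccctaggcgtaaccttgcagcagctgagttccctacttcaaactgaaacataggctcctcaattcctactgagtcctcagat
For motifs, 4 patterns were searched on both strands in 300 bp windows. The Itgam window held the ETS-IRF composite (GGAA, any 2 bases, GAAA), the PU.1 core GAGGAAGT and the AP-1 site TGANTCA, none of them overlapping another. The C3 window held the PU.1 core on the minus strand. The C1q and C3ar1 windows held none of these letters. Those windows lie at summits or starts, and the counts over all regions were made in other windows, at region centres. Of the 21 adult IRF8 consensus regions at the members, 1 held the composite at its centre (8.71% of all 16934 adult consensus regions), 0 the interferon-response-like pattern (GAAA, any 2 bases, GAAA) (5.89% of all), 3 the PU.1 core (8.82% of all) and 2 the AP-1 site (9.17% of all). That 1 composite, at chr10:77522803-77523102 in the Itgb2 window, is not the one printed for Itgam. In windows at the strongest summit 1 region held the composite, the printed Itgam run (9.48% of all), 1 the interferon-response-like pattern (5.76%), 3 the PU.1 core (9.29%) and 2 the AP-1 site (9.83%).

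At the C1q genes, the most constant element lay over the start of C1qb, chr4:136884494-136886971 in adult microglia, a promoter and UTR region. Its fold enrichment over the control, as the authors' peak caller gave it, was 5.49, 5.70, 7.13 and 7.64 in the P9 libraries and 8.88, 7.32 and 4.06 at P14. It was 27.5, 25.04 and 14.5 in adult microglia and 11.1, 7.84 and 3.52 in peritoneal macrophages. The 3 adult libraries were the highest of the 13. In adult microglia it ranked on average at the 99.2 percentile of its own lists by the authors' p-value. The control library differed between stages and tissues, so these values are a description and were not tested. The summits lay 115 to 165 bp before the start of C1qb in all 13 IRF8 libraries and 107 to 133 bp before it in the 4 PU.1 libraries, a span of 58 bp over all 17, the stretch in capitals in the C1q run.

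PU.1 was present at the C1qb start in both genotypes. Its fold enrichment was 18.3 and 14.5 in WT and 18.6 and 13.4 in IRF8KO, and the 2 genotypes overlapped. The element at the start of C1qa, chr4:136897228-136899295, was found in no P9 library, in 1 P14 library and in every adult and macrophage library, with fold enrichments of 4.32, 6.69 and 5.55 in adult microglia. The element at the start of C1qc, chr4:136892327-136894510, was found in 0 of 4, 1 of 3, 2 of 3 and 2 of 3 libraries in the same order. PU.1 at C1qc was present in both WT libraries (10.1 and 5.52) and in IRF8KO replicate 1 (6.22), and not in IRF8KO replicate 2.

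**Figure D1:**
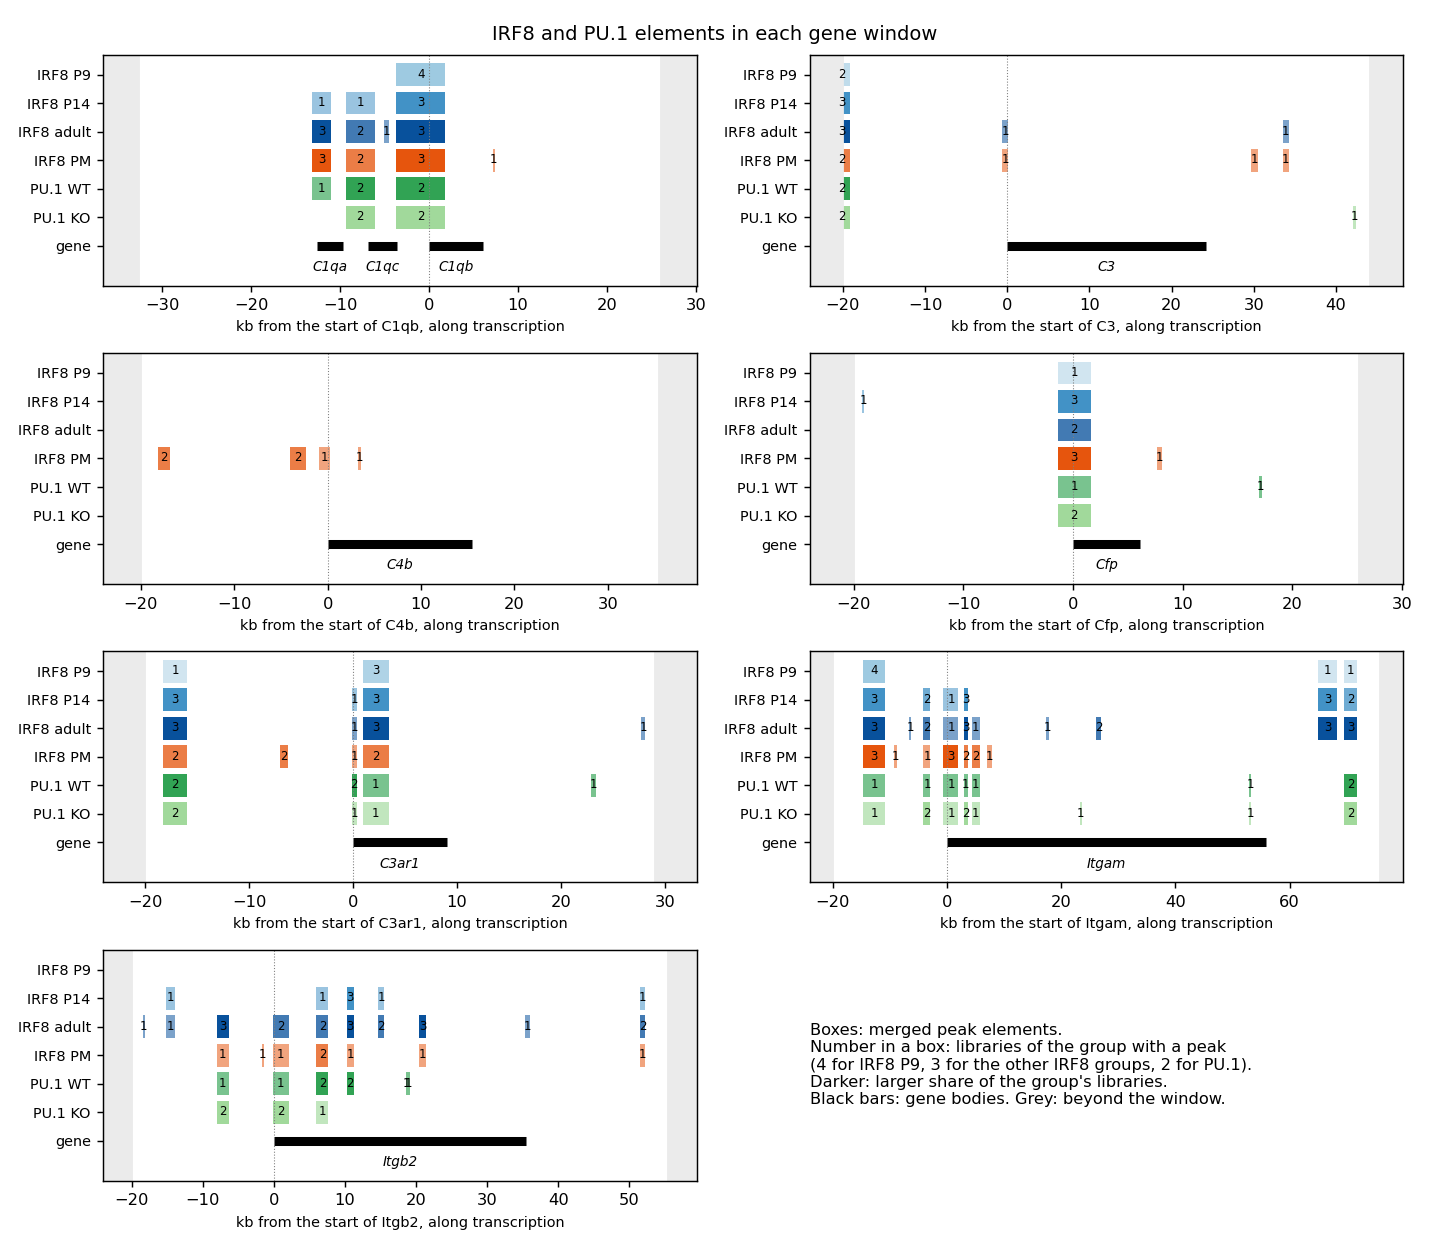
IRF8 and PU.1 elements (peaks of 17 lists merged) along each gene window, in kb from the start of the gene in the direction of transcription; rows are groups, the number in a box counts libraries of the group with a peak, and darker boxes mean a larger share. The C1qb start and the element before Itgam carry a 4, 3, 3 and 3 in the IRF8 rows, while the C4b panel has boxes in peritoneal macrophages only.

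The 2 genes of the thioester proteins differed from C1q. In the window of C3, the element found most often, chr17:57247258-57249191, overlapped the start of Gpr108 and reached only the outer edge of the window, so its assignment to C3 is by distance alone. It was present in all P14 and adult libraries, 2 of 4 P9 libraries and 2 of 3 macrophage libraries, with adult fold enrichments of 6.46, 6.76 and 11.02. PU.1 was present there in all 4 libraries, at 9.19 and 10.0 in WT and 11.8 and 10.7 in IRF8KO. At the start of C3 itself, IRF8 had a peak in 1 adult and 1 macrophage library of the 13, and PU.1 in none of 4.

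C4b had no IRF8 peak in any of the 10 microglia libraries and no PU.1 peak. In peritoneal macrophages replicates 1 and 2 had 3 regions each and replicate 3 had 0. The strongest, chr17:34746172-34747858, lay 3133 bp upstream of C4b with fold enrichments of 11.95 and 9.36, and the second, chr17:34760719-34762054, lay 17504 bp upstream with 4.32 and 6.73. C4b has a near-identical neighbouring copy, C4a, and the authors' handling of reads that fit both, not given in the sources used here, was not checked, so the placement of these peaks is uncertain. Cfp had 1 main element over its start, chrX:20930960-20932727, in every P14 and macrophage library, 2 of 3 adult libraries and 1 of 4 P9 libraries. Its fold enrichment was 6.04 and 7.09 in adult replicates 1 and 2, with no peak in replicate 3, and 12.7, 10.6 and 3.81 in macrophages. PU.1 was found there in WT replicate 2 (4.48) and in both IRF8KO libraries (9.15 and 8.80).

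Among the receptors, C3ar1 carried its main element in its intron, chr6:122853812-122855210. The fold enrichment was 4.41, 6.65 and 6.45 in P9 replicates 1 to 3, with no peak in replicate 4. It was 10.00, 12.6 and 10.8 at P14, 16.6, 19.6 and 12.3 in adult microglia and 9.28 and 8.86 in macrophage replicates 1 and 2, with none in replicate 3. Here no P9 value reached a P14 value. The adult range overlapped that of P14. A second element, chr6:122872490-122874292, lay nearest to the start of Necap1 and was found in 9 of 13 libraries.

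The element shared by all libraries at Itgam, chr7:128047892-128049652, lay 13868 bp upstream of its start between genes. The fold enrichment was 4.41, 5.44, 5.35 and 4.88 at P9, 8.60, 13.0 and 4.01 at P14, 18.7, 16.1 and 9.97 in adult microglia and 8.99, 5.33 and 4.94 in macrophages. The 8.99 of macrophage replicate 1 is that of a wider peak that overlaps the element. Its summit, at chr7:128051003, lay outside the element, 11637 bp upstream of the start of Itgam. Summits fell within the printed Itgam run in 10 of the 13 libraries, against 9 of the 11 with a peak for the C3ar1 run and 5 of the 10 with a peak for the C3 run. At this element PU.1 was found in WT replicate 2 (4.14) and IRF8KO replicate 1 (4.76) only. An intronic element, chr7:128065539-128066280, was absent at P9 and present in 3 P14, 3 adult and 2 macrophage libraries. Near the end of the window, 2 elements at Itgax (CD11c, the alpha subunit of complement receptor 4), chr7:128127687-128130954 and chr7:128132333-128134207, were found in all 3 adult libraries and in none of the macrophage libraries. The macrophage consensus region chr7:128062022-128062602, 328 bp before the start of Itgam, went the other way. It had a peak in all 3 macrophage libraries (6.74, 4.59 and 3.94), in 1 adult library and in no P14 or P9 library.

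Itgb2 had no IRF8 peak at P9. Its libraries held 0, 0, 0 and 0 regions at P9, 1, 4 and 2 at P14, 6, 9 and 5 in adult microglia and 3, 4 and 1 in macrophages. The values at P9, P14 and adult did not overlap, and all adult values were above all macrophage values. The intronic element chr10:77540519-77541466 was present in 3 P14, 3 adult and 1 macrophage libraries, with adult fold enrichments of 7.43, 9.15 and 9.68. A second intronic element, chr10:77536220-77537894, was present in 1 P14, 2 adult and 2 macrophage libraries.

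**Figure D2:**
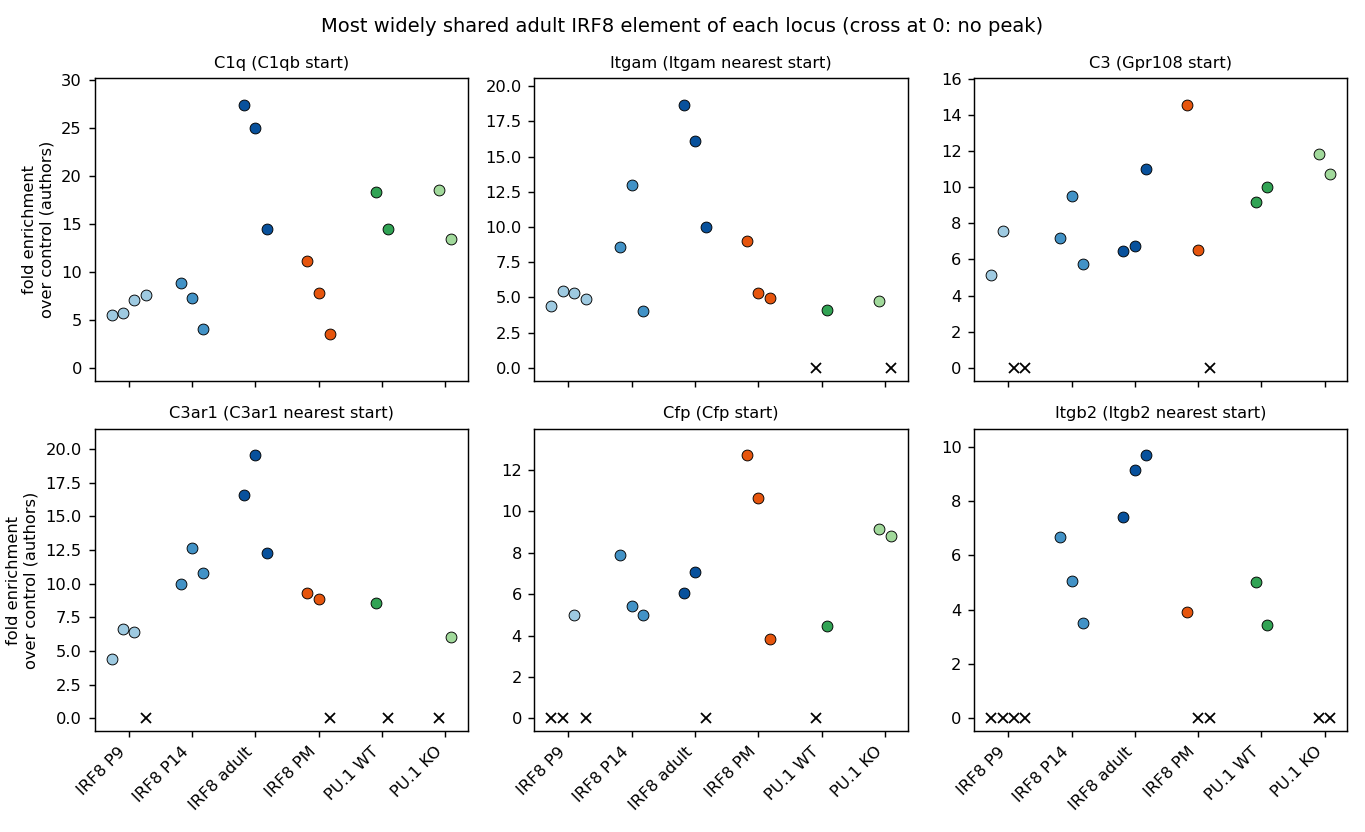
Fold enrichment over the control (authors' values, linear axis) of the most widely shared adult IRF8 element of each locus. Each point is a library, given by its highest peak overlapping the element, and a cross at 0 marks a library with no peak. Adult IRF8 values at C1q, 14.5 to 27.5, lie above all other IRF8 values there, and the PU.1 points there are 18.3 and 14.5 in WT and 18.6 and 13.4 in IRF8KO; C4b has no adult element.

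The number of regions over microglial stages was then compared. Over all members the libraries held 4, 4, 6 and 3 regions at P9, 12, 21 and 12 at P14 and 19, 33 and 17 in adult microglia. The whole lists lengthened in the same order, from 1168 to 2068 regions at P9 to 7931 to 19238 at P14 and 17048 to 29661 in adults. Consensus regions (merged regions that 2 or more libraries of a group share) at the members made up 0.291% of all in P9 microglia, 0.148% in P14 and 0.124% in adult microglia.

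Of the 8 members with a peak in these 10 libraries, 6 rose in number of regions with stage (exact Jonckheere-Terpstra permutation test, two-sided, Benjamini-Hochberg over 16472 protein-coding genes), and none fell. The 3 C1q genes share their regions and had the same counts in every library, so 3 of these 6 are 1 result. Of all genes tested, 46% were called higher and 0 lower, 8613 having an unadjusted p under 0.05. Itgb2 had the highest statistic the test allows, 33, with the smallest p it can give, 0.000238, and an adjusted p of 0.0150. For Itgam the regions were 1, 1, 3 and 1 at P9, 4, 7 and 4 at P14 and 5, 10 and 6 in adults (adjusted p = 0.0198, exact test). For each C1q gene they were 1 in all 4 P9 libraries, 1, 4 and 1 at P14 and 4, 5 and 3 in adults (adjusted p = 0.0379, exact test), so P14 overlapped both other stages. C3ar1 had 1 in each P9 library, 4, 3 and 2 at P14 and 2, 5 and 2 in adults (adjusted p = 0.0424, exact test). C3 had 1, 1, 0 and 0, then 1, 1 and 1, then 1, 3 and 1 (adjusted p = 0.132, exact test), and Cfp had 0, 0, 1 and 0, then 1, 2 and 2, then 1, 1 and 0 (adjusted p = 0.440, exact test). The median statistic was 27.5 over the 8 members, which is the value shared by the 3 C1q genes, and 26.5 over all genes. With a −log10 p of at least 10, 2 members and 1966 genes were called. With 5 kb on each side it was 2 members and 3519 genes. With all 21938 protein-coding genes tested, those without a peak included, 2 members and 26.8% of all genes were called higher. With every list cut to the same length by the authors' p-value no gene was called, members included. Without P9 replicate 1, 2, 3 or 4 the members called were 1, 1, 2 and 1, and the genes called over all were 1632, 1600, 1784 and 1633, against 7582 with every library. Without adult replicate 1, 2 or 3 they were 2, 1 and 3 members and 4249, 1920 and 4900 genes. With P14 replicate 1, 2 or 3 left out they were 6, 6 and 5 members and 6538, 7984 and 6646 genes. A left-out library leaves fewer assignments, so the smallest p the test can give is higher. These counts therefore cannot separate dependence on a library from that change in the test.

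**Figure D3:**
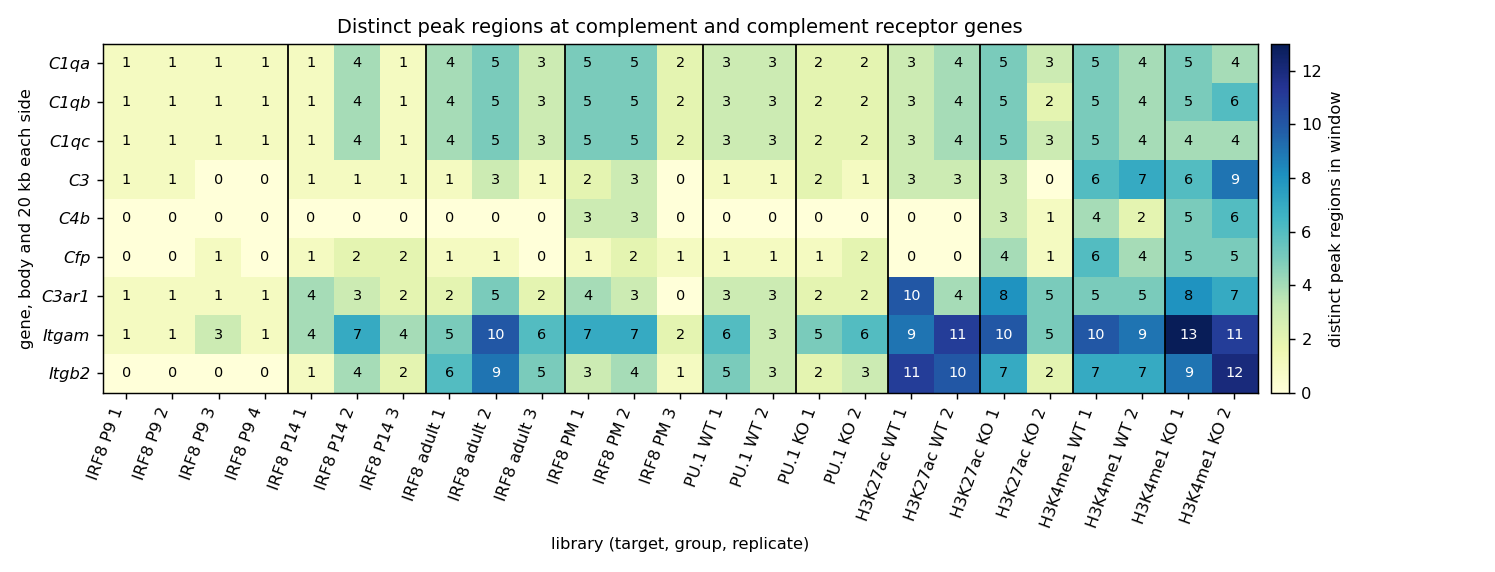
Distinct peak regions in the window of each gene (rows) in each of the 25 libraries (columns; PM, peritoneal macrophages); the number is printed in the cell and the colour gives the same count. Itgb2 has 0 in all 4 IRF8 P9 libraries and 5 to 9 in adult microglia, and C4b has 0 in all microglial IRF8 and PU.1 libraries.

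A consensus region was present at 6 of 9 members at P9, where 7% of all protein-coding genes had one. With 5 kb on each side it was present at 3 members (4.42% of all genes). The 6 genes rest on 4 elements, since the C1q genes share the C1qb start; the others are the element in C3ar1, the one before Itgam and the one at Gpr108 in the C3 window. Adult microglia had a consensus region at 8 of 9 members (all genes, 50.6%), P14 microglia at 8 (32%) and peritoneal macrophages at 9 (39.9%). Without macrophage replicate 1 or 2 the last count was 5 (16.2% and 17.7% of all genes). When lists were cut to equal length, one was present at 6 members in P9 (5.84% of all genes), 1 in P14 (5.31%) and 5 in adult microglia (5.41%), and at 5 in macrophages (4.403%).

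Adult microglia and peritoneal macrophages had a peak overlapping the C1qb, C1qa and Itgam upstream elements in all of their libraries. In macrophage replicate 3 that peak did not reach the macrophage consensus region over the C1qa start. In macrophage replicate 1 its summit lay outside the Itgam element. Of the 21 adult consensus regions at the members, 11 (52.4%) overlapped a macrophage consensus region, against 39.5% of all adult regions, and 4 (19.0%) had no macrophage peak at all, against 39.9%. The exact 95% binomial intervals for the members, 29.8% to 74.3% and 5.45% to 41.9%, include the shares of all regions and cover counting error only. Of 17 macrophage regions, 3 had no adult peak (17.6%, against 30.5% of all): both C4b elements and chr6:122862403-122863156, which lies 6618 bp upstream of C3ar1. In batch 1 the libraries held 19 and 33 regions at the members in adult microglia and 25 and 27 in macrophages. In batch 2 the single adult library held 17 and the single macrophage library 6. With 3 libraries against 3 an exact two-sided test cannot go below 0.1, so none was made. Itgb2 had more regions in adult microglia within both batches, 6 and 9 against 3 and 4 in batch 1 and 5 against 1 in batch 2. Of the 21 adult regions, 4 (19.0%) overlapped a P9 consensus region, against 7.76% of all, and 11 (52.4%) a P14 one, against 43.2%.

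PU.1 and both marks were then laid over the 21 adult IRF8 regions. PU.1 consensus regions of WT microglia overlapped 7 of them (33.3%, against 27% of all), H3K27ac 16 (76.2%, against 81.8%) and H3K4me1 21 (100%, against 91.3%). With only peaks at a −log10 p of at least 10, 0 of 12 overlapped H3K4me1 (0.502% of all), whose lists then left 60 WT consensus regions in all. A PU.1 consensus region was present at 7 members in WT and 8 in IRF8KO microglia, where 22.4% and 20.9% of all genes had one. An H3K27ac consensus region was present at 6 members in each genotype (61.7% and 30.1% of all genes): the C1q genes, C3ar1, Itgam and Itgb2. H3K4me1 was present at all 9 members in both (79.6% and 82.1%). When 1 WT library of a target was left out, the other list stood alone in place of the consensus, so the base changed as well. From WT PU.1 replicate 1 alone the share at the members was 61.9% (44.1% of all adult regions), and from WT H3K27ac replicate 1 alone it was 95.2% (89.6% of all).

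In IRF8KO microglia, a WT consensus region with no peak in either knockout library was counted as lost. With 2 libraries against 2 the smallest exact two-sided p is 0.333, so no test was made. For PU.1, 1 of 8 regions at the members was lost (25.1% of all PU.1 regions). It is chr10:77540685-77541144 in the Itgb2 intron, with WT fold enrichments of 5.01 and 3.45, and it coincides with the main IRF8 element of Itgb2. By the authors' p-value it stood only at the 34.3 and 10.1 percentiles of the WT lists. The second of these lists was called at the looser q-value of 0.05. Of 8 IRF8KO PU.1 regions, 0 had been gained (16.5% of all). The exact intervals, 0.316% to 52.7% and 0% to 36.9%, include the shares of all regions. Without IRF8KO replicate 1 or 2, 3 and 2 of 8 were lost (37.4% and 35.6% of all). When a library of the genotype that sets the base is left out, the other list stands for its consensus: from WT replicate 2 or 1 alone, 4 of 14 and 5 of 19 were lost (47.7% and 58.7% of all). From IRF8KO replicate 2 or 1 alone, 3 of 16 and 1 of 14 were gained (58.2% and 47.3% of all), and without WT replicate 1 or 2, 3 and 1 of 8 (31.02% and 24.3%). PU.1 replicate 1 was called in both genotypes against one control at a q-value of 0.01, and replicate 2 against another at 0.05. Within number 1, 8 of 19 WT regions had no peak in IRF8KO (66.4% of all) and 3 of 14 IRF8KO regions none in WT (53.6%); within number 2 it was 7 of 14 (57.5%) and 9 of 16 (67.7%).

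For H3K27ac, 4 of 20 WT regions were lost (34% of all). They are chr6:122862556-122864258 upstream of C3ar1 (WT 3.31 and 4.56), chr7:128052919-128053994 upstream of Itgam (4.63 and 4.25), chr10:77520307-77523760 between genes in the Itgb2 window, 6248 bp from the start of Fam207a and nearer to it than to Itgb2 (4.81 and 7.52), and chr10:77544942-77545896 in the Itgb2 intron (3.13 and 3.32). The last 2 overlapped an adult IRF8 consensus region and the first overlapped a macrophage one. None of the 3 regions at C1q was lost, and of 12 IRF8KO regions 0 had been gained (10.9% of all). The exact intervals for 4 of 20, 5.73% to 43.7%, and for 0 of 12, 0% to 26.5%, include the shares of all regions. The count lost depended on the setting. It was 7 of 13 with a −log10 p of at least 10 (50.7% of all) and 1 of 11 with 5 kb on each side (34.0%). With regions called when absent from the IRF8KO consensus it was 10 of 20 (78.4%). At the C1qb start H3K27ac had fold enrichments of 10.3 and 6.04 in WT and 10.7 and 4.90 in IRF8KO. In the WT consensus region that spans the start and intron of C3ar1, chr6:122852335-122857028, the highest peak of each library was 17.0 and 13.7 in WT and 6.44 and 5.05 in IRF8KO, where 2 separate consensus regions lay.

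**Figure D4:**
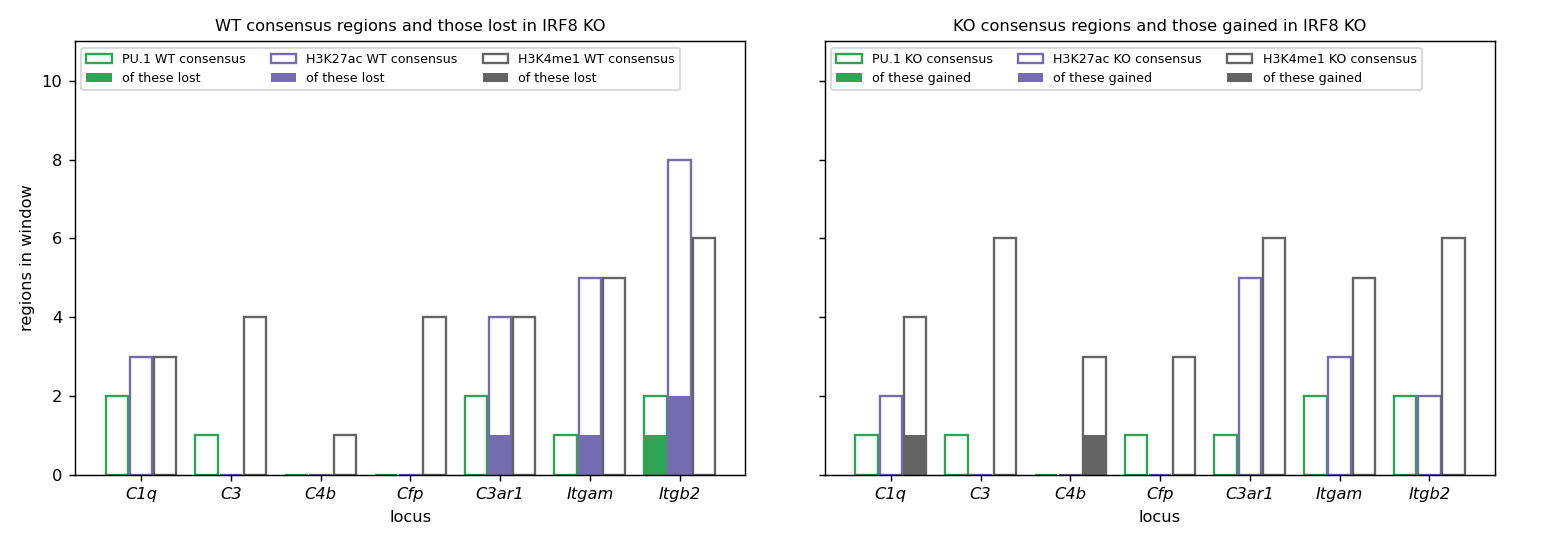
Consensus regions per locus (open bars) and those lost or gained in IRF8 KO (filled), for PU.1, H3K27ac and H3K4me1; the axis counts regions. Itgb2 has 2 of 8 H3K27ac and 1 of 2 PU.1 regions lost, and C1q has none lost for any of the 3 targets.

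Both IRF8KO libraries had less length under H3K27ac peaks than both WT libraries at 4 of 7 loci and more at 2. At the other, C3, the length was 1.03 to 1.84 kb in WT and 0 to 1.66 kb in IRF8KO, and the genotypes overlapped. H3K27ac peaks covered 14.1 and 15.1 kb of the Itgb2 window in WT and 6.36 and 0.726 kb in IRF8KO, so the IRF8KO mean was 24.3% of the WT mean. For Itgam they covered 13.98 and 10.6 kb against 8.17 and 2.12 kb (41.9%), for C3ar1 14.1 and 12.5 kb against 8.64 and 4.27 kb (48.5%), and for C1q 6.32 and 6.64 kb against 5.03 and 1.62 kb (51.3%). Over the whole genome the covered length was also lower in both, with an IRF8KO mean at 50.2% of WT. It was 87.6 and 76.9 Mb in WT and 65.6 and 17.0 Mb in IRF8KO, so replicate 2 lowered the IRF8KO mean most. IRF8KO replicate 2 was the shallowest H3K27ac library, with 8572250 fragments against 14670239 to 20229780 in the other 3, and markers of microglia with the mark over their start were fewer in IRF8KO (2 of 6 against 4 of 6 in each library); their part in the result was not tested. Without IRF8KO replicate 2, 4 of 20 regions at the members were lost (37.3% of all), and from IRF8KO replicate 1 alone 16 of 40 were gained (55.9% of all). Without IRF8KO replicate 1, 10 of 20 were lost (72.9% of all), and from IRF8KO replicate 2 alone 5 of 17 were gained (55.5%). From WT replicate 2 or 1 alone, 14 of 32 and 15 of 36 were lost (59.5% and 54.5%), and without WT replicate 1 or 2, 1 and 0 of 12 were gained (17.6% and 14.1%). Each of these bases is a single list where the library left out belongs to the genotype that sets it. C4b and Cfp had no H3K27ac peak in WT and 1.37 and 0.294 kb (C4b) and 1.42 and 0.289 kb (Cfp) in IRF8KO.

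H3K4me1, a mark of primed and active enhancers, had a peak in at least 1 IRF8KO library at every WT consensus region of the members. Of 27 WT regions at the members 0 were lost (13% of all), and of 33 IRF8KO regions 2 were gained (23.8% of all), at chr4:136863593-136866321 downstream of C1qb and chr17:34718785-34722738 downstream of C4b, within Tnxb. The exact intervals, 0% to 12.8% and 0.743% to 20.2%, do not include the shares of all regions. They cover counting error only, and neighbouring regions are not independent. The counts also moved with the setting. Gained were 0 of 18 with 5 kb on each side (23.8% of all) and 0 of 28 with equal list lengths (17.3%). With regions called when absent from the other genotype's consensus, 11 of 33 were gained (44.4%) and 3 of 27 lost (30.3%). The covered length of the C3ar1 window was 21.2 and 22.8 kb in WT and 29.8 and 32.9 kb in IRF8KO, and that of Itgb2 31.6 and 32.3 kb against 40.8 and 44.9 kb. At C3 it was 16.3 and 17.9 kb against 19.5 and 28.4 kb, and at C4b 5.41 and 2.69 kb against 9.47 and 11.2 kb. The genotypes did not overlap at these 4 loci. They overlapped at the other 3: 43.6 and 48.1 kb against 44.9 and 41.2 kb at Itgam, 18.8 and 17.4 kb against 21.4 and 17.8 kb at C1q, and 18.4 and 12.1 kb against 16.1 and 20.8 kb at Cfp. Over the whole genome the IRF8KO mean was 127% of WT. The libraries covered 293 and 321 Mb in WT and 314 and 468 Mb in IRF8KO, so the genotypes overlapped there. The IRF8KO libraries held 15840411 and 23884530 fragments and the WT libraries 14538968 and 14119640; the part of depth in the result was not tested. Without IRF8KO replicate 1 or 2, 3 and 0 of 27 regions were lost (19.0% and 24.7% of all), and without WT replicate 1 or 2, 7 and 6 of 33 were gained (35.9% and 32.6%). With a single list as the base, 1 of 38 and 4 of 44 were lost (WT replicate 2 or 1 alone, 44.1% and 33.0% of all), and 10 of 56 and 8 of 53 gained (IRF8KO replicate 2 or 1 alone, 56.0% and 41.7%).

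**Figure D5:**
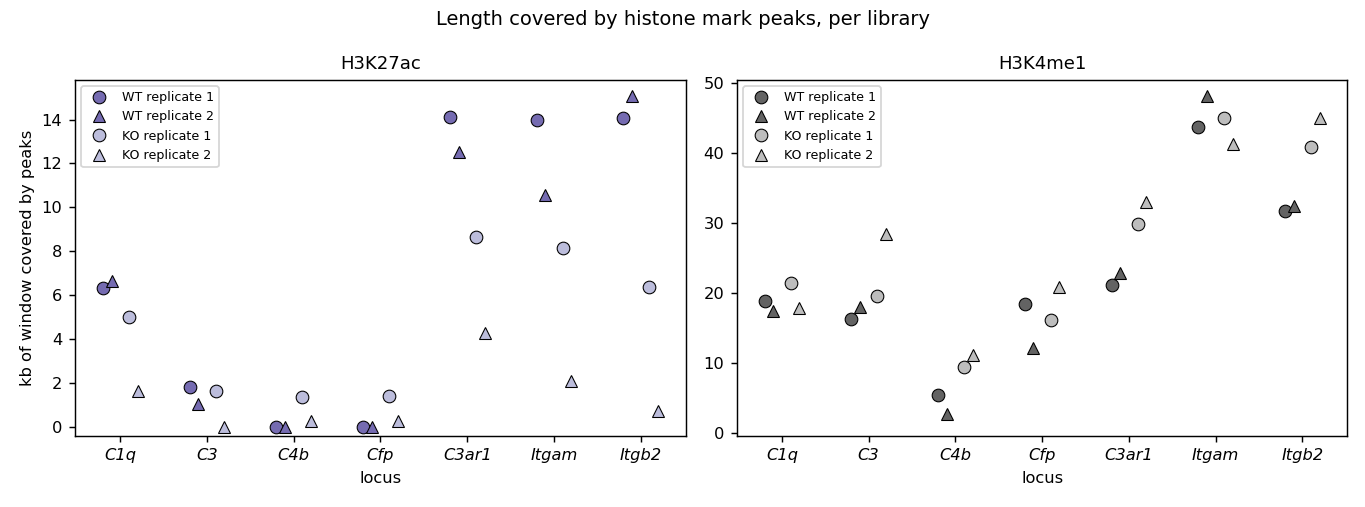
Length in kb of each gene window covered by H3K27ac (left) and H3K4me1 (right) peaks in each library; circles are replicate 1, triangles replicate 2, dark WT and light IRF8KO. At C1q, C3ar1, Itgam and Itgb2 both IRF8KO points for H3K27ac lie below both WT points.

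The other genes of the complement system were counted as a list of 31, of which 30 were annotated as protein-coding. The window of 1 of them, Itgax, overlaps that of Itgam, so regions there were counted for both lists. Of the 24 tested, which are protein-coding with an IRF8 peak in the microglial libraries, 9 rose with stage in the same test and none fell, against 46% of all genes. Those that rose included C2, C5ar1, C5ar2, Hc, Masp2 and Vsig4. The median statistic was 24, against 26.5 over all genes. C5ar1, the receptor for the C5a fragment, had 0 regions in each P9 library, 1 to 3 at P14 and 4 to 8 in adults (adjusted p = 0.0150, exact test). Vsig4, a macrophage receptor for C3b, had 1 to 3 regions in adult microglia and 2 to 7 in peritoneal macrophages. C1s1, Mbl1, Mbl2 and Serping1 had no IRF8 peak in any of 13 libraries. For PU.1, 1 of 7 distinct regions was lost in IRF8KO, at C1ra (25.1% of all), and 1 of 4 was gained, at C6 (16.5% of all). At least 1 H3K27ac region was lost at 12 genes (C2, C4a, C5ar1, C5ar2, C8g, C9, Cd46, Cfb, Cfi, Cr1l, Cr2 and Masp1), which came to 12 of 42 distinct regions (34% of all), and 1 of 20 was gained (10.9% of all). For H3K4me1, 1 of 52 regions was lost (13% of all) and 10 of 68 were gained (23.8% of all).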

How the data were processed

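Peak lists of 25 CUT&RUN libraries were used (13 IRF8, 4 PU.1, 4 H3K27ac and 4 H3K4me1); the 4 IgG libraries entered only as controls of those calls. Titles gave the groups. Per the labels, 4 of 7 P9 samples and 2 of 3 IRF8KO H3K27ac samples were provided. Per the submitters' processing notes, the tools included Trim Galore, Bowtie2 and MACS2 on mm10; versions of the first 2 and read filters, not given in the sources used here, stay unknown. Per the file headers, each library was called by the authors against an IgG control with MACS 2.2.7.1 (IRF8, PU.1) or 2.2.6 (marks), at a q-value of 0.01 (0.05 for PU.1 replicate 2) or, for broad H3K4me1 regions, a p-value of 0.01. Per the file headers, the control differed by stage and tissue, and for PU.1 between replicate numbers. The deposited pileup signal, −log10 p-value and fold enrichment over the control are those of the authors' caller, per the file headers; they rank or filter regions within a list, and fold enrichments set side by side between libraries are a description only.

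Regions repeated for several summits were counted once. A region overlapped another from 1 bp. Presence was computed per library, and a consensus region needed 2 libraries of a group. Trends used the exact Jonckheere-Terpstra permutation test over 4200 assignments of 10 libraries, checked on simulated counts, on the number of regions per gene window, over 16472 of 21938 protein-coding genes with a peak. Python 3.11.15, numpy 2.4.6, pandas 2.3.3 and scipy 1.17.1 were used, with exact 95% binomial intervals that cover counting error only. Replicate numbers were not taken to pair the IRF8 stage libraries, and the PU.1 numbers, which share a control and a threshold, were also compared within each number, an alternative chosen after seeing the data. All 9 members were described; elements named are up to 2 adult IRF8 consensus regions per locus found in most libraries, every PU.1 or H3K27ac region lost, and further elements chosen after their values were seen, as were the printed sequence windows, which replace windows at region centres. The members, lists and tests were chosen with earlier results of these data known. Alternatives were a p-value filter, a 5 kb flank, equal list lengths, a larger overlap, other consensus rules, a replicate block, testing all genes and leaving out each library.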

Additional observations from a re-analysis of the deposited data

Results flagged for a closer look

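Of 12 sets of 4 P9 values, 2 had a library apart from the others. These are small whole counts, and where 3 of 4 are equal any difference of the fourth meets the rule, so the usual rate of about 1 in 20 by chance does not hold here. P9 replicate 3 had 3 IRF8 regions at Itgam, and the other P9 libraries had 1 each. The same library had 1 region at Cfp, and the others had 0. Replicate 3 held the most fragments (20869014) and the most regions (2068) of the P9 libraries; their part in these values was not tested.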

How the results depend on the processing

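Under settings other than leaving out a library and the PU.1 replicate block given after them, 51 values were the same (a count within 1.5 times of the reported one, a share within its exact 95% interval) and 28 moved. With a −log10 p of at least 10, 1966 genes and 2 members rose with stage. The number of genes tested under this filter is not known here, so no share is given. PU.1 regions lost and gained were then 0 of 3 and 2 of 6 (28.1% and 19.6% of all), and H3K27ac regions lost 7 of 13 (50.7%). H3K4me1 regions gained were 0 (no region was left at the members), and 0% of adult IRF8 regions (0 of 12) overlapped H3K4me1. With 5 kb on each side, 3519 genes and 2 members rose, and the number of genes tested is again not known here. At this flank 3 members had a P9 consensus region (4.42% of all genes). H3K27ac regions lost were 1 of 11 (34.0% of all) and H3K4me1 regions gained 0 of 18 (23.8% of all). With equal list lengths, 0 genes and 0 members rose, consensus regions were present at 1 member at P14, 5 in adults and 5 in macrophages, H3K27ac regions gained were 1 of 8 (13.5% of all) and H3K4me1 regions gained 0 of 28 (17.3%). With a peak required in every library, 5 members had a macrophage consensus region (14.8% of all genes). With all protein-coding genes tested, 5878 genes (26.8%) and 2 members rose. With regions called when absent from the other genotype's consensus, PU.1 lost 4 of 8 and gained 4 of 8 (48.0% and 39.1% of all), H3K27ac lost 10 of 20 (78.4%), and H3K4me1 lost 3 of 27 and gained 11 of 33 (30.3% and 44.4%).

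With the replicate block, 0 genes and 0 members rose. This setting leaves out P9 replicate 4 and permutes stages only within each replicate number. Few assignments remain, so the smallest p is much higher, and a call would need many genes at the highest statistic. The 0 therefore cannot show that a trend is absent. Same-numbered deviations of the IRF8 stage libraries correlated at −0.0511 to 0.221, so those numbers were not taken as pairs. For PU.1, whose numbers share a control and threshold, the replicate block, chosen after seeing the data, gave 8 lost and 3 gained within number 1 and 7 lost and 9 gained within number 2, from single lists, and all 4 counts moved.

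Leaving out 1 library in turn gave 1600 to 7984 genes and 1 to 6 members rising. It also raised the smallest p that the trend test can give, so these counts do not measure dependence on a library alone. Consensus regions were then present at 5 to 6 members at P9 (4.75% to 6.02% of all genes), 8 at P14 (19.0% to 26.5%), 7 to 8 in adults (34.1% to 46.9%) and 5 to 9 in macrophages (16.2% to 37.1%). Where 1 of 2 libraries was left out, the remaining list stood for the consensus of its group, so these counts have other bases. PU.1 regions lost ranged from 2 to 5 and gained from 1 to 3, H3K27ac lost from 4 to 15 and gained from 0 to 16, and H3K4me1 lost from 0 to 4 and gained from 6 to 10. Overlap of adult IRF8 regions with PU.1 ranged from 35.7% to 61.9%, with H3K27ac from 71.4% to 95.2%, and with H3K4me1 stayed at 100%. Libraries held 7250496 to 24705885 fragments, and the part of depth in which regions were called was not tested, so absence of a peak means only that none was detected.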
